A study of Myzus persicae with 4 samples.

Results

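Of 10295 contigs with a probe on an array of the aphid Myzus persicae, 136 gave a lower signal with nicotine than with control diet in each of 3 biological replicates of aphid heads. A contig is a transcript sequence assembled from shorter reads, and each is named here by its identifier. The 136 contigs were chosen by their measured values. A contig entered when the deposited log2 ratio of nicotine over control was under -0.585, which is 1.5-fold lower, in all 3 replicates. Its control-diet channel also had to be well above background, by the scanner software's flag, on all 4 arrays. Where both probes of a contig qualified, the brighter one stood for it. The contigs made up 1.88% of the 7228 contigs detected in this way with control diet. The mirrored rule, a ratio over 0.585 in all 3 replicates, took 72 contigs or 0.996%. Since the ratios chose the contigs, the ratios given below describe them and carry no test.

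Aphids taken from cabbage fed for 24 h on an artificial diet with 250 µM nicotine, or on that diet without it, and heads were then collected. Each array compared head RNA from the nicotine diet with head RNA from the control diet. Replicate 1 was measured on arrays 1 and 3, a technical repeat by title, with nicotine RNA in Alexa Fluor 555. Replicates 2 and 3 were measured on arrays 2 and 4, with nicotine RNA in Alexa Fluor 647. The sample descriptions disagree with the titles and call array 4 the technical replicate. Arrays 1 and 3 were taken as the repeats, after the titles, and only the count of contigs and the limma calls are given both ways; all other values by replicate follow the titles alone. The clone, the age of the aphids and the number of heads per sample are not given in the sources used here, nor whether the replicates came from separate cultures.

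Nicotine, an alkaloid made by tobacco plants, acts on nicotinic acetylcholine receptors, the cation channels that carry most fast excitatory signals in the insect brain. Myzus persicae feeds on tobacco as well as on many other plants, and cytochrome P450 enzymes that oxidise nicotine are known to help tobacco-adapted forms tolerate it. An aphid head holds the brain, the eyes and antennae, the muscles of the mouthparts, fat body and cuticle, so a lower signal in whole heads can stand for less RNA per cell or for fewer cells of a type, which cannot be told apart here. The files used here do not pair contig identifiers with gene names or sequences. No contig is therefore given a role, no pathway list could be formed, and the head label could not be checked against marker genes.

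Of all probes other than controls, between 73.7% (array 2) and 88.0% (array 1) passed the background flag in the nicotine channel, and between 77.5% and 79.7% in the control channel. No spot was saturated. Technical error was read from repeated spots and repeated arrays. Spots printed 10 times on each array, for 12 probes of 6 other contigs, had a median SD of 0.10 (log2 ratio) within an array and a highest SD of 0.25. The repeat arrays 1 and 3 differed by a median of 0.06 in the 136 contigs, which was also the median over all 7228 detected contigs. The widest such gap among the 136 was 0.56. Of the 136 contigs, 131 had a deposited ratio under -0.585 on each of the 4 arrays taken singly.

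As log2 ratios of nicotine over control, the 136 contigs had a median of -1.23 in replicate 1, -0.79 in replicate 2 and -0.92 in replicate 3. Over all detected contigs the medians were -0.04, -0.02 and -0.06. The mean over the 3 replicates had a median of -1.0, a 2-fold lower signal, and ran from -2.91 to -0.67. At least 2-fold lower by this mean were 67 of the 136, and at least 4-fold lower were 3. By their standing probe 16 contigs were at least 2-fold lower in each replicate, and 17 by either probe, which is 0.235% of the detected contigs. The SD over replicates had a median of 0.30 in the 136, against 0.29 in all detected contigs, and it is taken over the ratios that chose the contigs.

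The replicates contributed unequally to the choice. Under -0.585 lay 20.1% of detected contigs in replicate 1, 8.90% in replicate 2 and 15.2% in replicate 3, counting a contig when either probe passed. Among contigs that passed in both other replicates, replicate 2 left out the most. There 728 contigs passed in replicates 1 and 3, and 18.7% of them also passed in replicate 2. Of the 190 contigs that passed in replicates 2 and 3, 71.6% also passed in replicate 1. Of the 295 that passed in replicates 1 and 2, 46.1% also passed in replicate 3. In the upward direction 726 contigs passed in replicates 1 and 3 and 9.92% of these also in replicate 2, where 5.62% of detected contigs passed.

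**Figure D1:**
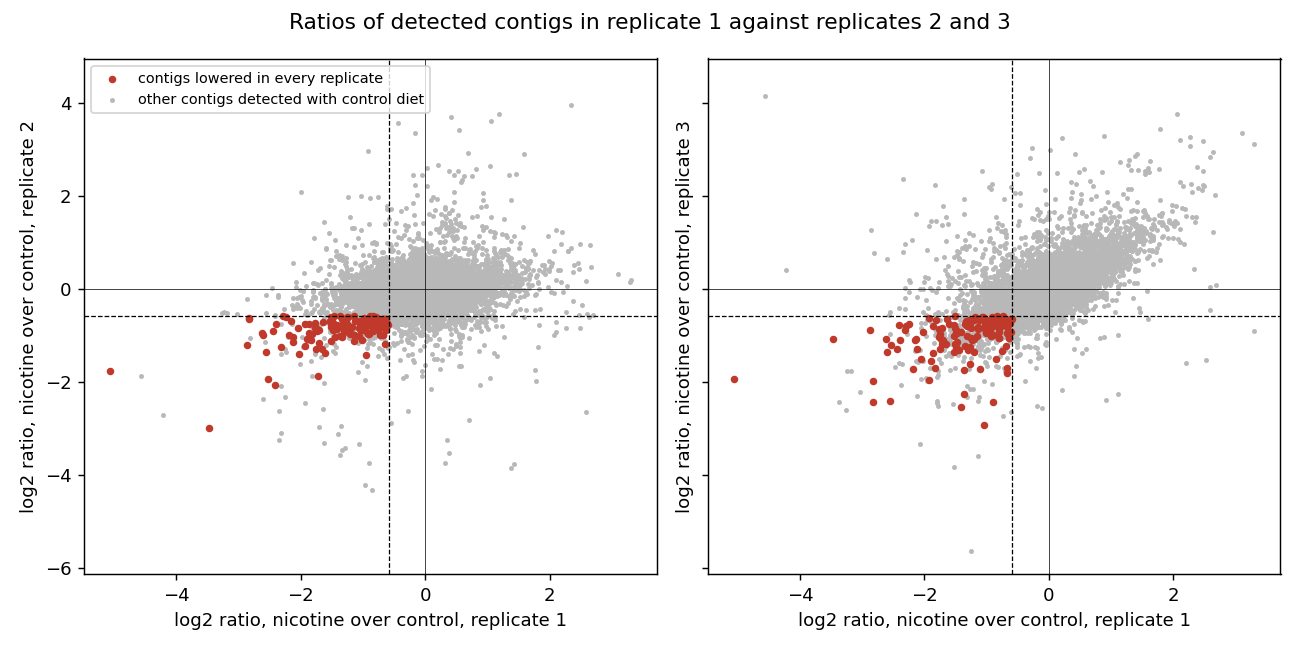
Log2 ratio of nicotine over control for each contig detected with control diet, with replicate 1 on the horizontal axis and replicate 2 (left) or replicate 3 (right) on the vertical axis. Red points are the 136 contigs lower in every replicate, grey points are the other detected contigs by their brightest probe, and dashed lines mark -0.585. The rule puts the red points in the lower left corner. Grey points lie there too, since each panel leaves out a replicate that the rule used. The red points reach lower ratios in replicate 1, to -5.06, than in replicate 2, to -3.0, or replicate 3, to -2.93.

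Contig9835 had the lowest mean ratio. Its log2 ratio was -5.19 on array 1 and -4.93 on array 3, the repeats of replicate 1, against -1.76 in replicate 2 and -1.93 in replicate 3. The mean was -2.91 ± 1.86 (SD, n = 3 replicates), or 7.54-fold lower. Replicate 1 thus stood far below the others, while its repeat arrays lay close together. As log2 levels, contig9835 was at 11.68, 15.04 and 13.93 with nicotine in replicates 1, 2 and 3, against 16.74, 16.81 and 15.85 with control diet. The control levels lay within 1 log2 unit, the nicotine levels did not, and no nicotine level reached a control level. Without replicate 1 the mean ratio was -1.84.

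Contig15043 followed with ratios of -3.47, -3.0 and -1.08 in replicates 1, 2 and 3, with a mean of -2.52 ± 1.27 (SD, n = 3). Its log2 levels were 7.62, 7.51 and 8.96 with nicotine, against 11.09, 10.52 and 10.04 with control diet. The nicotine channel was well above background only on arrays 1 and 4. The ratio in replicate 2, that of array 3 in replicate 1 and hence the mean are therefore bounds, which may understate the difference. Here replicate 3 was the one least lowered, with the highest nicotine level and the lowest control level, and the mean ratio without it was -3.24.

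Contig589 was lower by a log2 ratio of -2.56, -1.35 and -2.41 in replicates 1, 2 and 3, with a mean of -2.11 ± 0.66 (SD, n = 3). Its other probe gave -2.52, -0.66 and -2.37. Both probes placed replicate 2 nearest to 0. The log2 levels of the standing probe were 13.01, 15.37 and 14.58 with nicotine, against 15.56, 16.72 and 16.99 with control diet, and each nicotine level was below each control level.

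Contig4560 had ratios of -2.83, -0.63 and -2.43, with a mean of -1.96 ± 1.17 (SD, n = 3). Its log2 levels were 7.04, 14.97 and 13.14 with nicotine in replicates 1, 2 and 3, against 9.87, 15.60 and 15.57 with control diet. Replicate 1 was thus far below replicates 2 and 3 with both diets, by more than the gap between diets in any replicate. The nicotine channel was not well above background on arrays 1 and 3, so the ratio of replicate 1 is a bound. Without replicate 2 the mean ratio was -2.63.

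The other 8 contigs among the 12 of lowest mean ratio differed in which replicate lay nearest to 0. Contig4634 had ratios of -2.53, -1.93 and -1.20 in replicates 1, 2 and 3, and contig4016 had -2.41, -2.07 and -0.77. In these contigs, as in contig15043, replicate 3 was nearest to 0. Contig4013 had ratios of -2.83, -0.65 and -1.99, and contig10027 had -2.19, -0.98 and -1.72. Contig4114 had -2.60, -1.0 and -1.35. In these 3 contigs replicate 2 was nearest to 0. Contig5845 had -1.93, -1.22 and -1.95, but its nicotine channel was not well above background on array 2, so the value of replicate 2 is a bound, and its mean was -2.18 with Agilent processed signals, against -1.70 as reported. Contig10031 had ratios of -2.87, -1.21 and -0.89. Contig1714 had -1.42, -0.87 and -2.55. Replicate 3 thus gave the most negative ratio in contig1714.

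**Figure D2:**
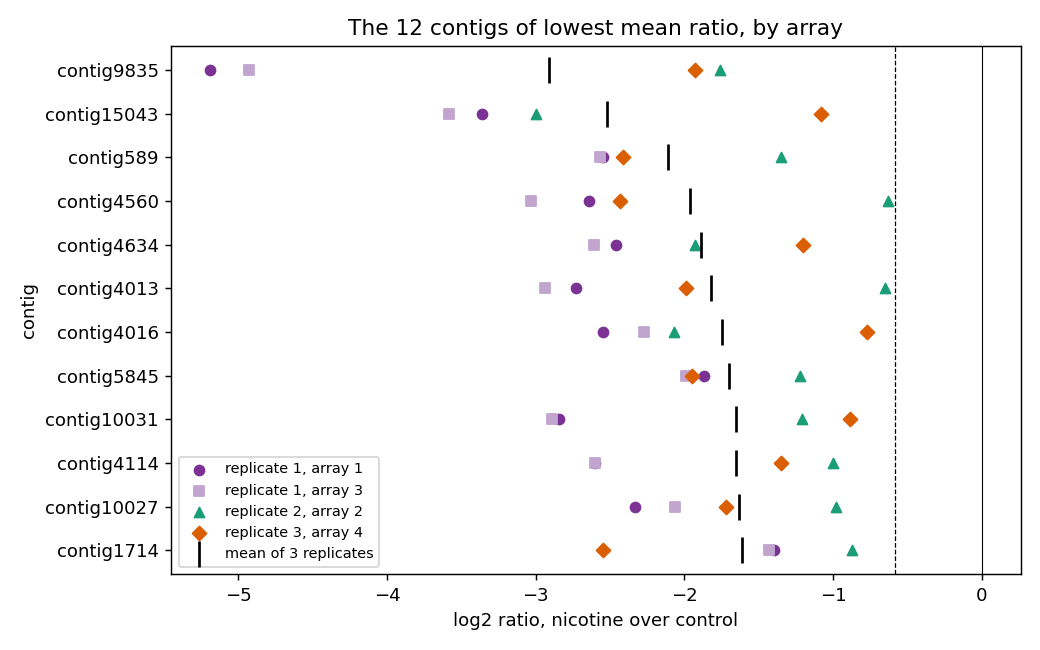
Log2 ratio of nicotine over control on each of the 4 arrays for the 12 contigs of lowest mean ratio, one per line. Symbols mark the arrays, black bars the mean of the 3 replicates and the dashed line -0.585. The symbols of arrays 1 and 3, which repeat replicate 1, lie close together, while replicates 2 and 3 lie to their right in most lines; contig1714 has replicate 3 furthest left, at -2.55.

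Among the members with the brightest control-diet spots, the nicotine channel also stayed bright. Spot brightness depends on the probe as well as on the RNA, so contigs are not ranked by it as transcripts. Contig10031 had log2 levels of 15.02, 16.96 and 17.36 with nicotine in replicates 1, 2 and 3, against 17.88, 18.17 and 18.25 with control diet. Contig6960 had 15.45, 17.33 and 17.14 with nicotine, against 17.85, 18.09 and 18.24 with control diet. Contig3346 had 15.57, 17.37 and 17.43 with nicotine, against 17.81, 17.98 and 18.18 with control diet. In all 3 contigs the control levels lay close together while the nicotine level of replicate 1 was well below those of replicates 2 and 3, and the diets did not overlap. Contig1353, contig2006 and contig1529 completed this set, with mean log2 ratios of -1.54 ± 0.40, -0.91 ± 0.30 and -1.32 ± 0.33 (SD, n = 3 each). The other probe of contig1353 gave -1.77, -0.47 and -1.25 in replicates 1, 2 and 3. That of contig2006 gave -1.50, -0.05 and -0.12, and neither met the rule. The other probes of contig1529 and contig3346 met it.

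**Figure D3:**
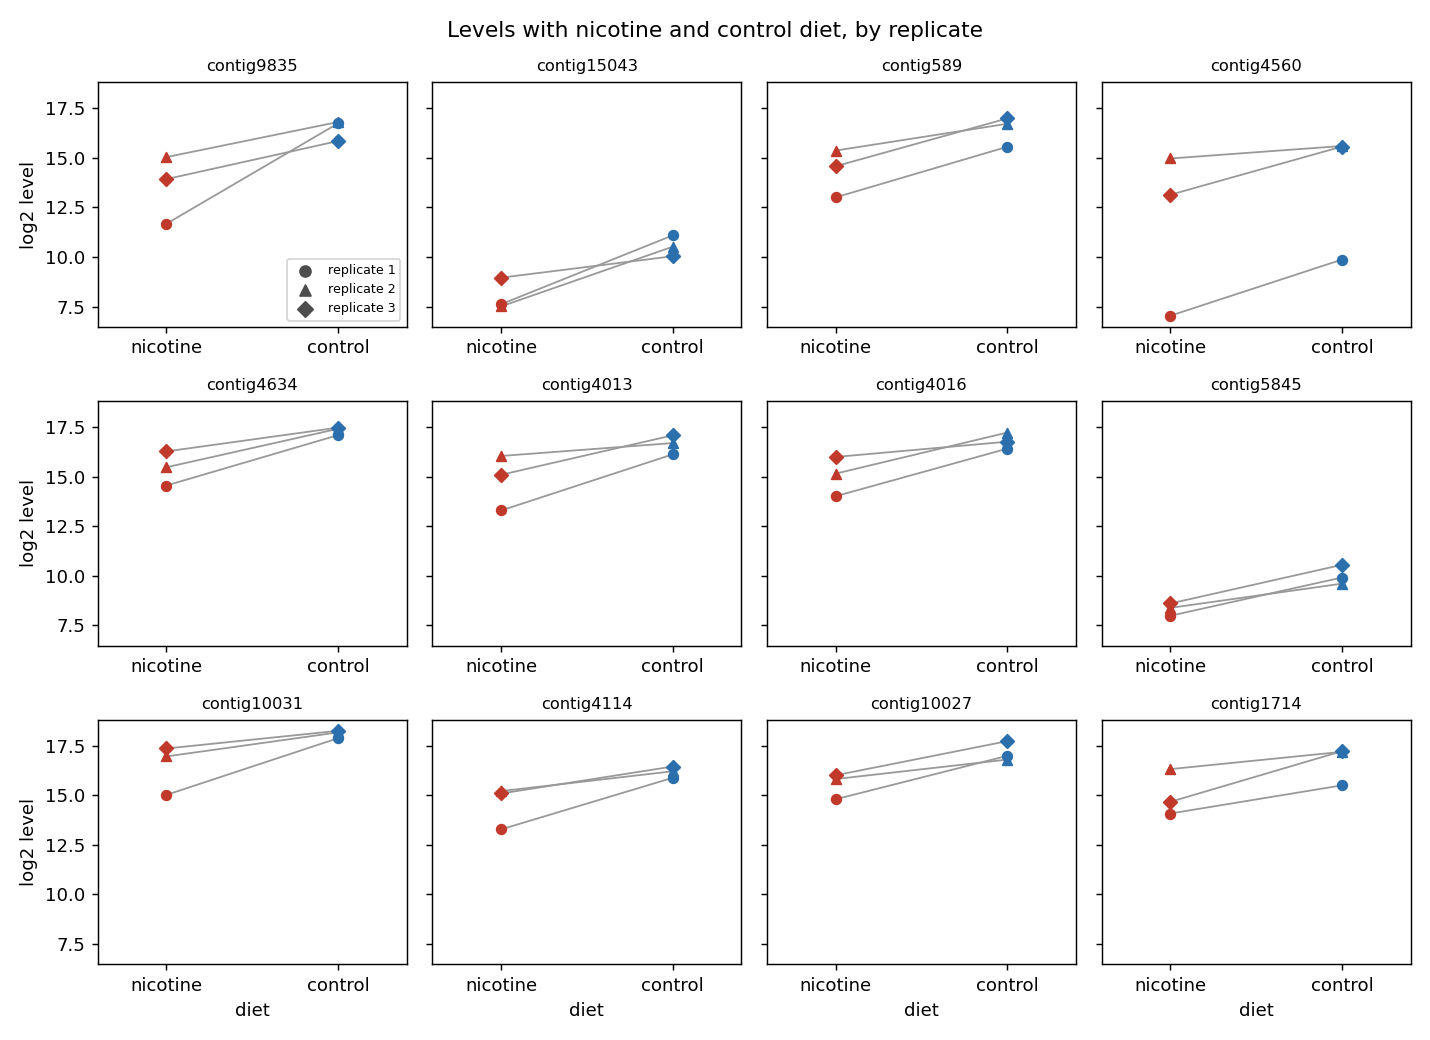
Log2 level with nicotine (left, red) and with control diet (right, blue) in the 12 contigs of lowest mean ratio, with a line joining the diets of each replicate. Every line runs upward from nicotine to control diet, which the choice of contigs fixes; in contig4560 replicate 1 lies far below the other replicates with both diets, at 7.04 with nicotine and 9.87 with control diet.

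Other members gave nearly the same ratio in every replicate. Contig6506 had ratios of -0.68, -0.64 and -0.68 in replicates 1, 2 and 3, with a mean of -0.67 ± 0.02 (SD, n = 3). Contig1479 had -0.70, -0.77 and -0.73, and contig9655 had -0.92, -0.96 and -0.99. The other probe of contig1479 gave -1.15, -0.22 and -0.63 and did not meet the rule, so the closeness held for its standing probe alone. Contig4840, contig6923 and contig9845 had means of -0.72, -0.95 and -0.92, each with an SD of 0.05. In contig6506, contig6923 and contig9845 the nicotine channel was not well above background on array 2, so their replicate 2 ratios are bounds and their spreads are not settled. With Agilent processed signals their means were -0.99, -1.23 and -1.27. At the other end of the spread stood contig9835, contig15043, contig4560, contig4013 and contig10031, described above, and contig4194. Contig4194 had ratios of -1.04, -0.79 and -2.93, with replicate 3 far below the others, and a mean of -1.59 ± 1.17 (SD, n = 3) that was -0.92 without it.

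By replicate, the most negative ratio was that of replicate 1 in 93 of the 136 contigs (68.4%), of replicate 3 in 30 (22.1%) and of replicate 2 in 13 (9.56%). Over all detected contigs those shares were 32.3% for replicate 1, 31.3% for replicate 3 and 36.4% for replicate 2. Replicate 1, with the most negative ratio in most of the 136, was also the replicate in which the largest share of all contigs lay under the limit.

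The levels differed between replicates as well as between diets. Within a contig, the control-diet level of replicate 1 lay below the mean of replicates 2 and 3 by a median difference of -0.50 (log2) in the 136 contigs, against -0.04 in all detected contigs. With nicotine the median difference was -0.89 in the 136 and -0.06 in all detected contigs. Replicate 1 had the lowest level of the 3 with both diets in 109 of the 136 (80.1%), against 26.0% of detected contigs. With arrays set to a common median in place of quantile scaling of their average levels, that count was 85 (62.5%), against 18.3%. The median differences were then -0.31 with control diet and -0.67 with nicotine in the 136, against 0.09 and 0.07 in all detected contigs. The signed difference of replicate 2 minus replicate 3 had a median of 0.02 with nicotine and -0.07 with control diet in the 136. Single contigs differed by more in either direction. With nicotine, contig4194 was at 14.11 and 11.42 in replicates 2 and 3, and contig482 at 11.82 and 13.41. The rule used the ratio of the diets within each replicate, and a flag that the control channel was well above background. A ratio is a difference of levels, so the choice can bear on the levels of each replicate. How far it does so was not tested. Each diet had the other dye in replicate 1, so dye and replicate 1 cannot be told apart here. With quantile scaling, the average over both diets had a median of 11.73, 12.80 and 12.75 in replicates 1, 2 and 3 in the 136. In all detected contigs it was 11.89, 11.90 and 11.93, but that scaling itself sets average levels nearly alike between arrays. Whether dye plays a part in these levels was not tested.

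**Figure D4:**
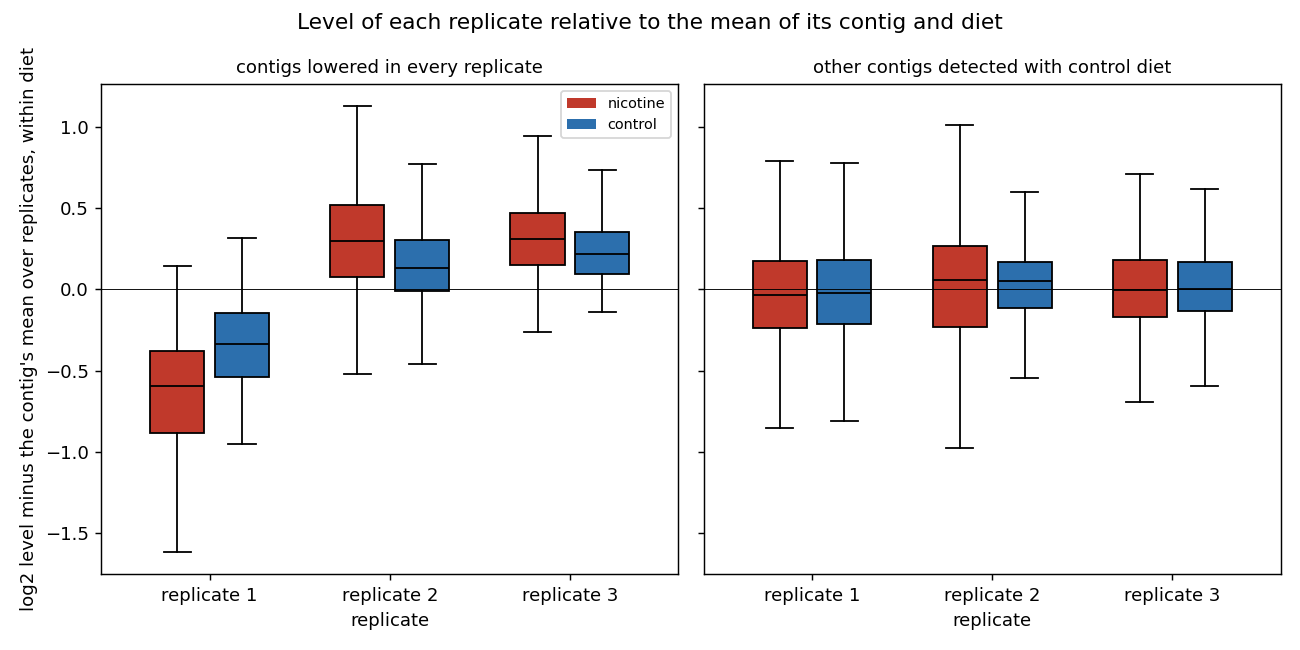
Log2 level of each replicate minus the mean of the same contig and diet over replicates, for the 136 contigs lower in every replicate (left) and the other contigs detected with control diet (right), with nicotine in red and control diet in blue. Boxes span the quartiles with the median as a line, and whiskers reach the last value within 1.5 box lengths. On the left both boxes of replicate 1 lie below 0 and those of replicates 2 and 3 above it; on the right all medians lie near 0.

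The control-diet level spanned over 2 log2 units between replicates in 12 of the 136 contigs (8.82%), against 2.73% of detected contigs. These 12 were picked out after their values were seen. Replicate 1 was the lowest in 11 of them and replicate 3 in 1. Contig6262 had log2 levels of 9.50, 14.61 and 13.81 with nicotine in replicates 1, 2 and 3, against 10.15, 15.79 and 14.85 with control diet. Contig4094 had 8.88, 15.19 and 14.12 with nicotine, against 11.01, 16.23 and 15.18 with control diet. Contig15112 had 11.89, 15.91 and 14.10 with nicotine, against 12.56, 16.91 and 15.81 with control diet. In all 3 contigs both diets gave the same order, with replicate 2 highest, replicate 3 next and replicate 1 lowest, and the replicates differed far more than the diets. In 38 of the 136 contigs the control levels spanned more than the size of the contig's mean ratio. The same count was not made over all detected contigs, where the span had a median of 0.47 and the mean ratio a median of -0.04. The rule takes only contigs with large ratios, so the count of 38 describes the choice.

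Because of such gaps, levels of the diets overlapped in some members although every paired ratio was negative. All 3 nicotine levels lay below all 3 control levels in 93 of the 136 contigs, where 8.01% of detected contigs did so, and the levels overlapped in the other 43. Without replicate 1 the levels overlapped in 9 contigs, without replicate 2 in 27 and without replicate 3 in 34. Fewer levels then have to lie apart, so overlap falls by construction. Those counts were not made over all detected contigs. The ratios that chose the contigs are the differences of these levels, so all these counts describe the choice. Contig1714 is an overlapping case, with 14.08, 16.32 and 14.67 with nicotine in replicates 1, 2 and 3, against 15.50, 17.19 and 17.22 with control diet. Its nicotine level in replicate 2 exceeded its control level in replicate 1.

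Another probe of the same contig was on the array for 52 of the 136 contigs, and 84 rested on a single probe. Such probes read the same RNA on the same arrays, so they check the probe and not the replicate. The other probe met the rule in 27 of 52 (51.9%), and it had a negative ratio in all 3 replicates in 48. Over the 3440 contigs with both probes detected, 20.3% of the dimmer probes were negative in all 3 replicates. The comparison is not fully like for like, since in members such as contig1353 and contig3173 the other probe was the brighter one. The mean ratio of the other probe had a median of -0.94, against -0.97 for the standing probe of the same contigs, and the probes differed by a median of 0.12, against 0.08 over the 3440 contigs.

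The closest pairs of probes belonged to contig1473, contig2867, contig628 and contig1714. Contig2867 had ratios of -1.75, -1.29 and -0.96 in replicates 1, 2 and 3, and its other probe gave -1.76, -1.37 and -0.89. Contig1714 had -1.42, -0.87 and -2.55, and its other probe gave -1.40, -0.75 and -2.63, so the low value of replicate 3 was read by both. The widest pairs were those of contig482, contig2563, contig3860 and contig2991. Contig482 had ratios of -1.51, -0.81 and -0.59, while its other probe gave 0.06, -0.59 and 1.87, a mean of 0.44. It was the only one of the 52 whose other probe had a positive mean. Contig2563 had -1.21, -0.94 and -1.35, and its other probe gave -0.43, 0.31 and -0.85.

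**Figure D5:**
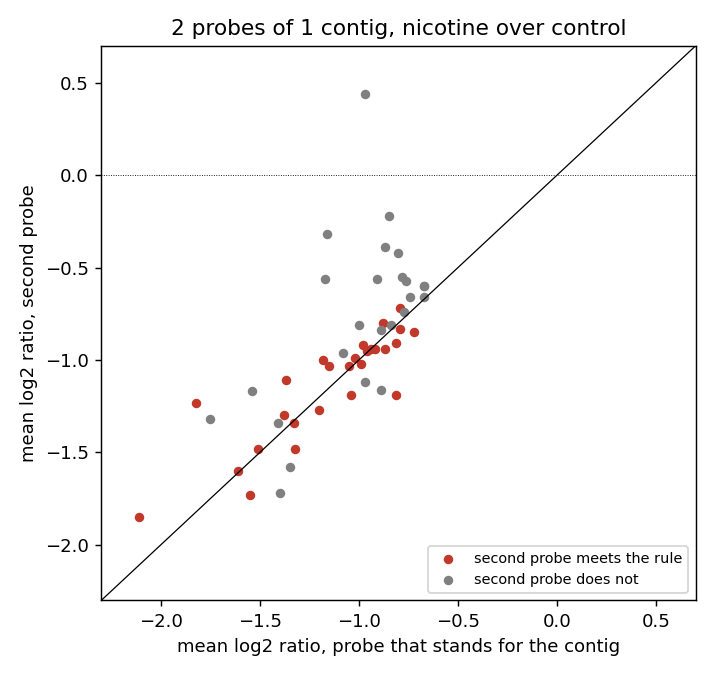
Mean log2 ratio of nicotine over control over 3 replicates for the probe that stands for a contig (horizontal axis) and for the other probe of that contig (vertical axis), in the 52 contigs that have both. Red points are the 27 whose other probe also meets the rule, grey points are the remainder, and the line marks equal values. Most points lie near the line; the point above 0 is contig482, at -0.97 and 0.44.

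The nicotine channel was well above background on all 4 arrays in 117 of the 136 contigs and on fewer arrays in 19, and on no array in 0. Array 2, which holds replicate 2, accounted for 17 of these 19. Over all probes other than controls, the nicotine channel passed the flag in 73.7% on array 2, against 86% to 88% on the other arrays. The same count over all detected contigs was not made. Apart from contig15043 and contig4560, the lowest of the 19 contigs were contig5845 and contig5301. Contig5301 had log2 levels of 6.87, 7.80 and 9.16 with nicotine in replicates 1, 2 and 3, against 8.59, 9.68 and 10.35 with control diet, and its nicotine channel was well above background on array 4 only. Its ratios of -1.72 in replicate 1 and -1.88 in replicate 2 are therefore bounds.

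At the edge of the rule, the deposited ratios run on without a gap. Just inside, contig6862 had deposited log2 ratios of -1.471, -0.585 and -1.142 in replicates 1, 2 and 3, and its replicate 2 value lay below the limit only in further decimals. Contig9700 had -0.587, -0.736 and -0.923, contig4024 had -1.140, -0.587 and -1.019, and contig482 had -1.512, -0.817 and -0.592. Just outside, contig6787 had -1.378, -0.584 and -1.173, contig9279 had -0.582, -0.609 and -0.973, contig5735 had -0.838, -0.581 and -1.147, and contig2063 had -1.466, -0.930 and -0.577. At the limit, contigs inside and outside differed by less than the within-array spot SD of 0.10.

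Across the whole array limma called 0 of 12503 probes at an adjusted p of 0.05, which is 0% of those tested, and 0 of the 136 contigs. In the 136 the adjusted p in limma ran from 0.307 to 0.314. Without adjustment, 1996 probes had a p under 0.05, and 974 of the 12503 (7.79%) had such a p with a lower signal with nicotine. Of the 136, 135 did so, the exception being contig4194, but the same ratios chose these contigs and the share is no support for them. With arrays 1 and 4 averaged in place of arrays 1 and 3, as the descriptions would have it, limma called 1752 probes and 134 of the 136 contigs, and the rule itself took 204 contigs. That setting counts arrays 1 and 3 as separate samples. Their ratios differed by a median of only 0.06 over all detected contigs, against 0.36 between replicates 2 and 3. The fit as reported held a dye term and had 1 residual degree of freedom, so before moderation its standard errors rest on the gap between replicates 2 and 3.

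With the spot rows of the slide split into 4 equal bands, 51 of the 136 standing probes (37.5%) lay in band 3, against 26.1% of detected contigs. Bands 1, 2 and 4 held 24.3%, 18.4% and 19.9% of the 136, against 24.3%, 25.4% and 24.2% of detected contigs. Whether spot position plays a part in the ratios was not tested.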

How the data were processed

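The scanner files hold uncorrected median spot and background intensity per channel, processed intensity that is background-subtracted and dye-normalised, a log10 ratio of red over green, and flags, per the file headers from Agilent Feature Extraction 10.1.1.1. Per spot, the authors deposited a log2 ratio whose direction, red over green, was found by setting it against the scanner ratios (r between 0.959 and 0.969, column medians between -0.032 and -0.003). The submitters' processing notes name limma, and other steps are not given in the sources used here.

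Deposited ratios chose the contigs. All other values came from spot medians, in limma 3.58.1 under R 4.3.3, with normexp (offset 50), loess within arrays (controls at weight 0) and, for levels, Aquantile between arrays. Arrays 1 and 3 were turned and averaged by title, although the description of array 4 calls it the technical replicate. These ratios correlated with the deposited ones at 0.998 to 0.999. For the test, 98 flagged and 2027 dim probes were left out, and nicotine and dye coefficients were fitted (two-sided, Benjamini-Hochberg). A check of the model on simulated data, with a smaller spread than measured and no dye effect, covered only recovery of the mean coefficients. It does not speak to error rates in these data. The contigs, the naming rule (by lowest ratio, brightness, spread, detection, nearness to the limit and probe difference) and the tests were chosen with earlier results of these data known. P-values speak only for these samples, and they do not measure the spread of a contig over all replicates. The standard errors rested on 1 residual degree of freedom and, through moderation, on 2.68 prior degrees of freedom drawn from all probes tested. Contig9835, with an SD over replicates of 1.86, and contig6506, with an SD of 0.02, both had a standard error of 0.18.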

Additional observations from a re-analysis of the deposited data

Results flagged for a closer look

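Probes named for something other than a contig took no part in the description above, and 4 of the 141 such probes detected with control diet on all 4 arrays (2.84%) met the same rule. Among contig probes detected in the same way, 163 of 10668 met it. Whether the shares differ was not tested. The mean log2 ratios of nicotine over control of the 4 probes ran from -1.51 to -0.81. The probe named GUT71CP had ratios of -1.80, -0.85 and -1.14 in replicates 1, 2 and 3, and the one named DW362021.1 had -2.41, -0.61 and -1.52. The probe named X81887.1 had -0.83, -0.66 and -1.03, and the one named AJ236788.1 had -0.88, -0.63 and -0.94. The names are those of the array design and have no match in the reference table used here, so what these probes measure is not stated.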

How the results depend on the processing

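The count of 136 contigs was 17 with a 2-fold limit and ranged from 190 to 728 without a replicate, the highest without replicate 2 and 295 without replicate 3, where fewer replicates have to pass by construction. It stayed within 1.5 times in the other 8 alternatives, from 117 with both channels well above background to 204 with arrays 1 and 4 averaged. Own ratios gave 137 contigs, 135 of them among the 136, and Agilent processed signals gave 175, 130 of them among the 136. The median mean ratio of -1.0 lay between -1.14 and -0.85 in all 9 alternatives. The count of 51 other probes with a negative mean ratio was 51 or 52 throughout. Probes past the threshold in limma, 0 as reported, numbered 1752 with arrays 1 and 4 averaged and 3506 with the 4 arrays as independent samples, and 134 of the 136 contigs then passed in each. Both settings count the repeat arrays 1 and 3 as separate samples, whereas the other 7 alternatives gave 0. For the 35 named contigs, 62 of 70 mean ratios from the deposited table or Agilent processed signals lay within 1 SD of the reported value, and the other 8 were all from Agilent signals. Counts of replicate order and of separate levels, varied only after the data were seen, stayed within 1.5 times. The 43 contigs with overlapping levels became 9 to 34 without a replicate, where fewer levels have to lie apart by construction. This too was tried after the data were seen. Detection in the nicotine channel of array 2 limits the dim contigs.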
